A study of Danio rerio with 20 samples.

Results

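The proteasome is the protease complex that degrades ubiquitin-tagged proteins, and the genes described here encode its subunits, activators, inhibitor and assembly chaperones. They were taken as every row of the gene count table whose zebrafish symbol, whatever its case, begins with PSM, a letter from A to G and a digit, a choice made by name and not by measured value. The rule matched 58 of 32105 genes in the table. A further match in the name table, PSMB11, was not analysed here, since it had no row of counts. Of the 58 genes, 57 passed the filter on low counts that left 20788 genes for testing. The gene that did not was psmb11b, which in mammals names the thymus-specific catalytic subunit, with 0 to 9 counts per library and 0 in 3 libraries. The label fitted 55 of the 57 genes tested. The exceptions carry a subunit's name without being subunits: PSMC3IP is a cofactor of meiotic recombination, and PSME3IP1 is a protein that binds the activator PA28γ.

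The 20 skin samples came from male zebrafish of the strain AB JxTu, and their RNA libraries were made with a kit that does not mark strand. The 4 groups of 5 samples were unexercised fish of 1 year, fish of 1 year from the swim tunnel, unexercised fish of 3 years and fish of 3 years from the swim tunnel. In a swim tunnel fish hold their place in a driven stream of water, and the labels give no length, speed or timing of the exercise. The labels name neither batch nor pooling and link no samples across groups. The p-values thus set a difference between groups against the spread among the samples, and the labels do not say whether each sample is a single fish. Library numbers 1 to 5 within a group below follow the order of deposit and pair nothing.

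The barrel of the complex, the 20S core, is built of 2 outer rings of α subunits, which gate the entrance, and 2 inner rings of β subunits, of which a few carry the active sites. The 19S cap binds ubiquitin chains, unfolds the substrate with a ring of ATPases and feeds it into the barrel. Interferon induces replacement catalytic β subunits and the PA28αβ activator, and the resulting immunoproteasome supplies peptides for presentation on MHC class I. In skin these genes are expressed in keratinocytes and in resident immune cells alike.

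The libraries held between 29280697 and 52437698 counts assigned to genes. Keratinocyte markers, which define the labelled tissue, were detected as 7 of 7 genes, summing to between 54545 and 102475 CPM per library (CPM here means counts scaled to a common library size after TMM normalization). The 58 genes together summed to between 2521 and 4895 CPM. Swim-tunnel 3-year library 4 stood apart: it held the highest value of 35 of the 57 genes tested, while swim-tunnel 3-year libraries 5 and 1 held the lowest of 21 and 14. Some calls among the 57 genes and the medians of the barrel and cap genes are therefore also given without library 4. Most fold changes of single genes, those of the inducible and PA28αβ genes among them, are given only with it. Results for other genes and gene lists are likewise given only with it. Unexercised 1-year library 5 held the highest value of 12 genes and unexercised 3-year library 1 the lowest of 11. On the second axis of a principal component analysis the latter stood at 53.7. The other unexercised 3-year libraries lay at -4.09 to 8.45 and the unexercised 1-year ones at 28.8 to 54.5. Leaving out unexercised 3-year library 1 took the genes called from 201 to 393 with age in unexercised fish. With the swim tunnel at 3 years it took them from 275 to 42. In bulk tissue, fewer cells of a type and less RNA per cell cannot be told apart.

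Few of these genes were called as different between groups: of 6 calls over the 4 pairwise comparisons, 1 fell on a gene of the barrel or the cap, and the others on an activator, an inhibitor, an assembly factor and the 2 genes that are no subunits. A gene was called when its Benjamini-Hochberg adjusted p over all 20788 genes was below 0.05 in edgeR's quasi-likelihood test. In 1-year fish, 2 of 57 were called between swim-tunnel and unexercised skin, where 15.5% of all genes tested were called (7.37% higher and 8.15% lower with the swim tunnel). PSMG3, which helps the α ring form, rose and PSME3IP1 fell. In 3-year fish the swim tunnel gave 0 of 57 calls against 1.32% of all genes (0.803% higher, 0.52% lower). Of the 57 genes 4 had an unadjusted p below 0.05 there. Counts at an unadjusted p, here and below, are given without the share of all genes at that p, so nothing is read from them. Under DESeq2, which called 6.05% of all genes there, the count in 3-year fish was 2, both of them PSME4 genes.

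Between the ages, 1 of 57 was called in unexercised fish, against 0.967% of all genes (0.495% higher and 0.471% lower at 3 years). It was a gene of the lid of the cap, PSMD11 (ENSDARG00000005134), which fell. Among swim-tunnel fish 3 of 57 were called, against 17.2% of all genes (9.73% higher and 7.43% lower at 3 years): PSMF1 and PSMC3IP rose and PSME4 (ENSDARG00000018742) fell. The test of whether the exercise effect differed between the ages called 0 of 57, with 1 at an unadjusted p below 0.05, and 0.00481% of all genes. Under DESeq2 it called 0 of 57 and 2.41% of all genes. The groups did not overlap at all for 7 of 57 genes between the 1-year groups (12.8% of all genes tested), for 0 between the 3-year groups (4.32%), for 1 between the unexercised ages (5.08%) and for 1 between the swim-tunnel ages (9.13%). In the 1-year comparison and in the swim-tunnel age comparison the share of these genes called was thus below the share of all genes. No test of that difference was made.

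**Figure D1:**
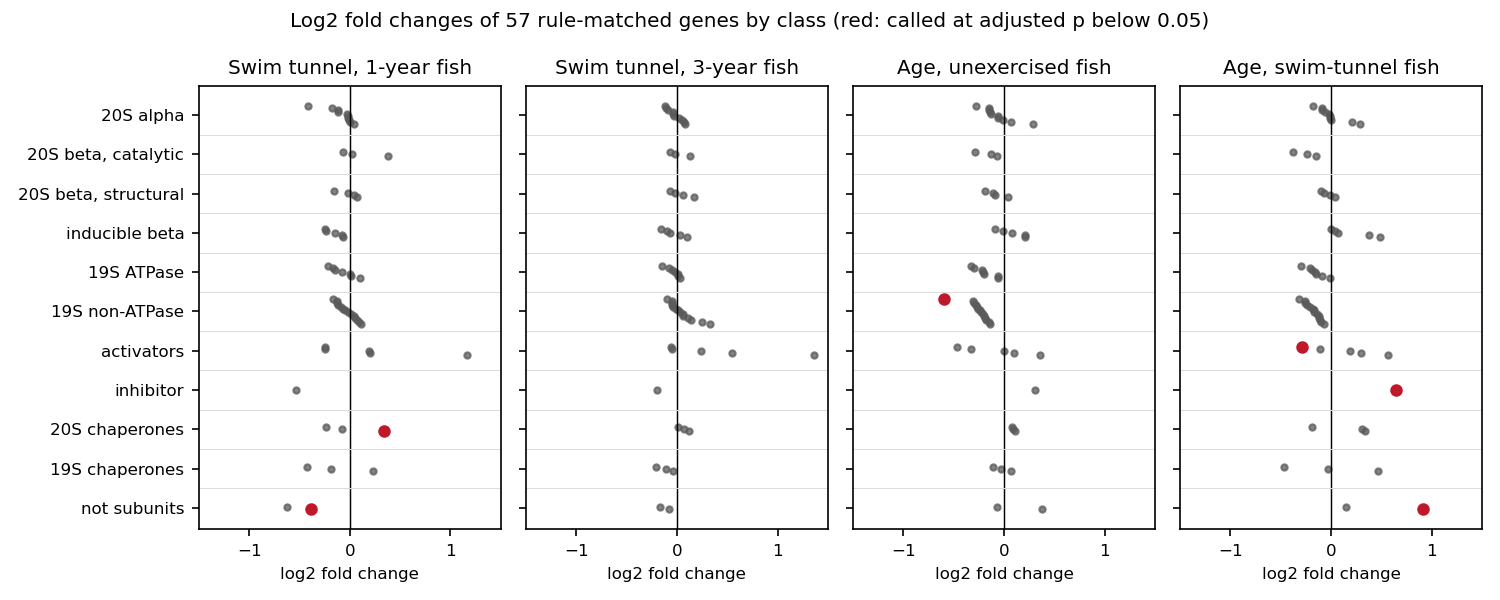
Each point is 1 of the 57 genes tested, at its log2 fold change (x axis) in 1 of the 4 pairwise comparisons (panels), with genes arranged by class (rows) and spread vertically only to separate them. Red points passed an adjusted p of 0.05; they number 2, 0, 1 and 3 from left to right, and in the 2 age panels all 21 points of the 19S rows lie left of 0, though with plain library totals 5 of 21 do so in swim-tunnel fish.

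Genes of the α ring, the outer gate of the barrel, were present at similar levels in all 4 groups. Corrected for transcript length, the 7 ring positions lay between 53.0 CPM per kb (α3, PSMA4) and 116 CPM per kb (α2, the sum of PSMA2 and psma2a) over the 20 libraries. The α4 position was held by a single gene listed as PSMA8, to which RefSeq gives the synonym psma7, at 92.5 CPM per kb. Of the 10 α genes 0 were called in any comparison. Their log2 fold changes ran from -0.41 (psma6l, adjusted p = 0.129) to 0.045 between the 1-year groups and from -0.28 to 0.29 between the unexercised ages.

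The α1 gene psma6l was the α gene with the widest difference between the 1-year groups. It measured 40.2, 41.5, 35.4, 49.1 and 36.6 CPM in unexercised and 33.7, 29.2, 32.5, 26.7 and 30.3 CPM in swim-tunnel 1-year fish. All 5 swim-tunnel values lay below all 5 unexercised ones, though the adjusted p did not pass. It did pass, as lower, with the compared groups fitted alone and with plain library totals in place of TMM. The 2 genes listed as PSMA6, which share the α1 position with it, stood at log2 fold changes of -0.031 ± 0.11 and -0.021 ± 0.17 (SE) in that comparison. These near copies, like PSMA2 with psma2a, may share reads, so the split between them is uncertain.

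The structural β genes PSMB1, PSMB2, PSMB3 and PSMB4, which shape the inner rings without an active site, were called in 0 of 4 comparisons. Their log2 fold changes lay between -0.18 and 0.17 over those comparisons. Per length they ranged from 33.5 CPM per kb for PSMB2 (β4) to 119 CPM per kb for PSMB4 (β7).

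The constitutive catalytic positions, with β4 (PSMB2), were the lowest of the barrel per length once genes sharing a position were summed. PSMB5 carries the chymotrypsin-like site, PSMB6 the caspase-like site and PSMB7 the trypsin-like site. Per length PSMB6 averaged 38.8, PSMB5 36.9 and PSMB7 11.2 CPM per kb. The α1 to α7 positions, for comparison, were each at 53.0 CPM per kb or more.

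PSMB5 measured 56.6, 48.7, 42.7, 58.2 and 63.7 CPM in unexercised 1-year fish and 48.0, 50.5, 57.3, 55.3 and 46.8 CPM in swim-tunnel 1-year fish. At 3 years it measured 36.1, 42.9, 50.7, 39.7 and 51.0 CPM without and 37.0, 40.4, 42.2, 47.9 and 50.4 CPM with the swim tunnel. The ages overlapped in both arms, and the log2 fold changes with age were -0.29 ± 0.12 (SE; adjusted p = 0.237) in unexercised and -0.24 ± 0.12 (SE; adjusted p = 0.181) in swim-tunnel fish.

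PSMB6 measured 44.8, 49.4, 50.1, 48.2 and 59.6 CPM in unexercised and 49.4, 49.5, 55.2, 54.3 and 46.8 CPM in swim-tunnel 1-year fish. In 3-year fish the values were 41.7, 43.0, 54.7, 52.1 and 49.0 CPM without and 42.0, 48.0, 45.7, 59.5 and 34.5 CPM with the swim tunnel. All 4 groups overlapped, and the log2 fold changes lay between -0.15 and 0.018.

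PSMB7, the lowest of the catalytic genes, measured 16.9, 12.2, 11.2, 8.68 and 16.6 CPM in unexercised 1-year fish and 17.9, 18.2, 17.4, 15.02 and 16.8 CPM in swim-tunnel 1-year fish. The 3-year fish gave 16.2, 10.3, 9.08, 9.66 and 14.9 CPM without and 12.99, 9.51, 18.2, 7.41 and 17.6 CPM with the swim tunnel. The swim-tunnel 1-year libraries were tightly grouped at the upper end and the other groups spread widely, all overlapping. Its log2 fold change was 0.38 ± 0.24 (SE; adjusted p = 0.3) with the swim tunnel at 1 year.

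**Figure D2:**
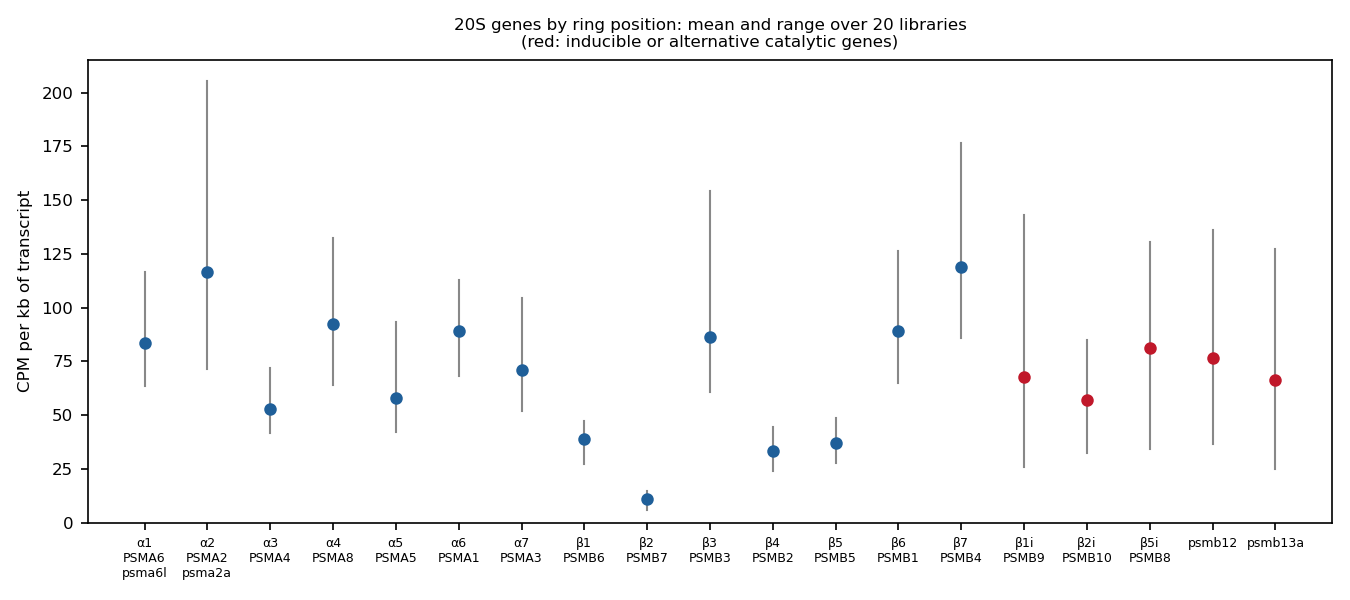
Points give the mean and vertical lines the range over 20 libraries of the level in CPM per kb of transcript (y axis) at each α and β position of the 20S core (x axis), with several genes at a position summed. The constitutive catalytic positions β1, β2 and β5 averaged 38.8, 11.2 and 36.9 CPM per kb, and the inducible genes that replace them (red) averaged 67.6, 57.2 and 81.4.

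Across the 17 constitutive 20S genes and the 21 genes of the 19S cap together, the measured differences were small in every comparison. The median log2 fold change of these 38 genes was -0.020 with the swim tunnel at 1 year and -0.011 at 3 years, beside 0.012 and 0.010 for all genes tested. It was -0.18 with age in unexercised and -0.12 in swim-tunnel fish, beside 0.021 and 0.025 for all genes. The medians with the swim tunnel lay close to 0, and their sign was not stable: without swim-tunnel 3-year library 4 the 3-year value was -0.14, with limma voom -0.12 and without unexercised 3-year library 3 0.078, and without unexercised 1-year library 5 the 1-year value was 0.0086. With plain library totals the 1-year value was -0.24, beside -0.21 for all genes. The value with age in swim-tunnel fish was -0.26 without swim-tunnel 3-year library 4, -0.21 with limma voom, -0.068 without library 1 and -0.069 without library 5, and it turned to 0.12 with plain library totals, beside 0.25 for all genes. The 95% intervals of all 38 fold changes lay inside a 2-fold change in either direction in each pairwise comparison. Inside a 1.5-fold change lay 36 and 35 of the 38 intervals for the swim tunnel at 1 and 3 years, and 29 and 33 for age without and with it.

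The genes of the 19S cap had small negative fold changes with age in both arms, few of which passed the test. In unexercised fish all 21 log2 fold changes with age were below 0, with a median of -0.21, whereas 47.6% of all genes tested were below 0. In swim-tunnel fish, which share no library with the former, all 21 were again below 0, with a median of -0.17, against 47.9% of all genes. The sign was not particular to the cap. Of the 17 constitutive 20S genes 14 were below 0 in each arm, with medians of -0.11 in unexercised and -0.063 in swim-tunnel fish. The 21 genes were read from the same libraries, so their signs are not separate observations. No test of them as a set was made. Of the single genes, 1 of 21 was called in unexercised fish (0.967% of all genes) and 0 of 21 in swim-tunnel fish (17.2% of all genes). At an unadjusted p under 0.05 stood 3 of 21 in unexercised and 2 of 21 in swim-tunnel fish. In swim-tunnel fish DESeq2 likewise called 0 (22.5% of all genes), and limma voom called 2, psmd4b and PSMD6 (12.2% of all genes). With the swim tunnel the same 21 genes had medians of -0.048 at 1 year and 0.012 at 3 years. The 3-year median was -0.14, with 18 of 21 below 0, without swim-tunnel 3-year library 4, and -0.12, again with 18 below 0, with limma voom. It was 0.088 without unexercised 3-year library 3, and the 1-year median was 0.0034 without unexercised 1-year library 5. With plain library totals the 3-year median was -0.019 and the 1-year median -0.27 with 21 of 21 below 0, beside -0.21 for all genes.

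Summed over the 21 genes, the cap measured 1364, 1345, 1174, 1479 and 1657 CPM in unexercised 1-year fish and 1079, 1114, 1450, 1173 and 1205 CPM in unexercised 3-year fish. Swim-tunnel fish gave 1259, 1348, 1454, 1413 and 1338 CPM at 1 year and 949, 1208, 1208, 1644 and 1032 CPM at 3 years. The ages overlapped in both arms, and library 4 of the swim-tunnel 3-year fish was the highest 3-year value. Without that library the median log2 fold change of the 21 genes with age in swim-tunnel fish was -0.31, against -0.12 without library 1 and -0.11 without library 5, each with 19 of 21 below 0. Without library 4 the calls among all 57 genes in that comparison became 5 (12.7% of all genes), all lower at 3 years: psmd4b, PSMC4, PSMD6, PSMD5 and PSME4 (ENSDARG00000018742). The direction in swim-tunnel fish depended on the scaling. With plain library totals the median of all genes moved to 0.25 and that of the 21 genes to 0.073, with 5 of 21 below 0, yet all 21 lay below the median of all genes, with a difference of -0.17 between the medians.

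**Figure D3:**
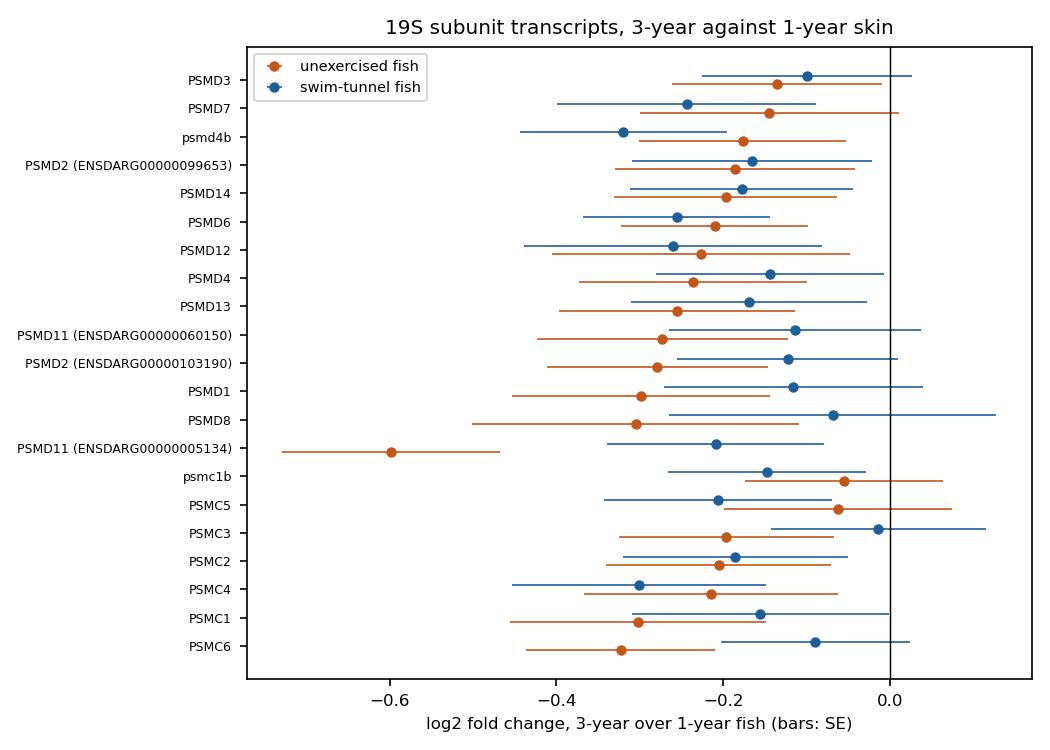
Points are the log2 fold changes of 21 genes of the 19S cap, 3-year over 1-year fish (x axis), with bars of 1 SE, in unexercised (orange) and swim-tunnel (blue) fish. All points lie below 0, though with plain library totals 5 of 21 do so in swim-tunnel fish; the lowest, PSMD11 (ENSDARG00000005134) in unexercised fish at -0.60, is the one that passed the adjusted threshold.

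The ATPase ring at the base of the cap, which unfolds substrates, is encoded by PSMC1 to PSMC6, with psmc1b as a further copy of PSMC1. Per length its 6 positions lay between 37.7 CPM per kb for PSMC6 and 69.3 CPM per kb for PSMC5. The log2 fold changes with age ranged from -0.32 to -0.055 in unexercised and from -0.30 to -0.014 in swim-tunnel fish. PSMC6 had the lowest p of the ring, with 71.9, 64.5, 53.2, 78.1 and 71.9 CPM at 1 year and 48.7, 54.1, 56.7, 50.5 and 61.6 CPM at 3 years in unexercised fish. A single 1-year value lay among the 3-year ones, and the adjusted p was 0.162.

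The non-ATPase genes of the cap include the scaffolds PSMD1 and PSMD2, the ubiquitin receptor PSMD4, the deubiquitinase PSMD14 and the lid genes PSMD3, PSMD6, PSMD7, PSMD8, PSMD11, PSMD12 and PSMD13. PSMD14, which removes the ubiquitin chain from the substrate, had log2 fold changes with age of -0.20 ± 0.13 and -0.18 ± 0.13 (SE) in unexercised and swim-tunnel fish. Of the receptor pair, psmd4b stood at 50.4 and PSMD4 at 8.01 CPM per kb. The receptor copy psmd4b had the lowest p of the cap with age in swim-tunnel fish, at -0.32 ± 0.12 (SE; adjusted p = 0.0806). PSMD2 is listed under a pair of identifiers, ENSDARG00000099653 and ENSDARG00000103190, whose counts kept a ratio between 0.906 and 1.08 in all 20 libraries. RefSeq holds 1 psmd2 gene, so whether these are separate genes is uncertain. Counted once, the cap would hold 20 genes in place of 21.

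PSMD11 is the lid subunit that clamps the lid to the barrel, and RefSeq names a pair of zebrafish genes, psmd11a and psmd11b. The gene ENSDARG00000005134 measured 41.6, 37.9, 29.7, 38.7 and 43.3 CPM in unexercised 1-year fish and 21.9, 23.8, 29.8, 25.8 and 24.9 CPM in unexercised 3-year fish. In swim-tunnel fish it measured 34.9, 37.9, 36.5, 38.0 and 35.6 CPM at 1 year and 23.7, 31.2, 31.2, 42.6 and 29.6 CPM at 3 years. Of the 1-year unexercised values a single one, 29.7 CPM, fell below the highest 3-year value of 29.8 CPM. The log2 fold change with age was -0.60 ± 0.13 (SE; adjusted p = 0.0383) in unexercised fish and -0.21 ± 0.13 (SE; adjusted p = 0.278) in swim-tunnel fish. The second PSMD11 gene, ENSDARG00000060150, stood at -0.27 ± 0.15 (SE; adjusted p = 0.358) in unexercised fish.

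PSMD11 (ENSDARG00000005134) also had the lowest p among the 57 genes in the test of whether the exercise effect differed between ages, at a difference of 0.39 ± 0.18 on the log2 scale (SE; adjusted p = 0.368). Leaving out 1 library ended its call with age in 7 of 20 fits, with adjusted p up to 0.0936. These were the fits without unexercised 1-year library 1, 2, 4 or 5 and unexercised 3-year library 2, 4 or 5. The call was also lost with the compared groups fitted alone (adjusted p = 0.0538) and with plain library totals (adjusted p = 0.0643).

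The inducible catalytic genes were expressed at high level in all groups and varied between libraries more than between groups. PSMB8, PSMB9 and PSMB10 are the interferon-inducible counterparts of PSMB5, PSMB6 and PSMB7. The genes psmb12 and psmb13a are further catalytic β genes of fish, for which RefSeq lists the synonyms beta1t and beta2ta. In the RefSeq annotation of a later zebrafish assembly, psmb13a, psmb8a, psmb12, psmb9a and the peptide transporter gene tap2a are consecutive neighbours, whereas psmb10 lies on another chromosome. The annotated span of psmb13a there overlaps those neighbours. Since the counts carry no strand, reads of overlapping genes cannot be told apart wherever the annotation used for counting overlaps likewise.

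PSMB8 measured 143, 155, 76.5, 182.1 and 133 CPM in unexercised and 131, 121, 123, 115 and 132 CPM in swim-tunnel 1-year fish. The 3-year fish gave 55.8, 149, 193, 175 and 113 CPM without and 149, 118, 95.6, 212 and 65.0 CPM with the swim tunnel. The swim-tunnel 1-year libraries lay close together, and in each other group the highest library was more than 2 times the lowest.

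PSMB9 measured 77.6, 97.2, 39.0, 88.4 and 71.5 CPM in unexercised and 64.3, 59.5, 61.3, 51.8 and 77.3 CPM in swim-tunnel 1-year fish. It measured 29.9, 91.7, 119, 117 and 73.2 CPM in unexercised and 83.3, 76.6, 71.2, 165 and 44.3 CPM in swim-tunnel 3-year fish. The same libraries were low as for PSMB8: library 1 of the unexercised 3-year fish, library 3 of the unexercised 1-year fish and library 5 of the swim-tunnel 3-year fish.

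The fish gene psmb12 measured 72.0, 86.5, 38.9, 92.3 and 74.7 CPM in unexercised and 60.8, 58.8, 62.4, 51.2 and 76.3 CPM in swim-tunnel 1-year fish. It measured 32.1, 68.3, 98.2, 83.0 and 60.4 CPM in unexercised and 61.3, 59.3, 53.0, 119 and 32.8 CPM in swim-tunnel 3-year fish. Those 3 low libraries recurred, and swim-tunnel 3-year library 4 was again the highest of the 20.

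Its neighbour psmb13a measured 91.9, 111, 44.9, 119 and 86.3 CPM in unexercised and 83.8, 81.7, 84.0, 77.9 and 106 CPM in swim-tunnel 1-year fish. In 3-year fish it measured 36.9, 111, 156, 127 and 92.2 CPM without and 121, 107, 85.1, 189 and 60.0 CPM with the swim tunnel. The lowest and highest libraries were those of PSMB8, and all 4 groups overlapped.

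PSMB10, outside that neighbourhood, measured 51.2, 58.3, 49.2, 71.4 and 57.6 CPM in unexercised and 51.2, 50.6, 56.7, 52.9 and 60.9 CPM in swim-tunnel 1-year fish. It measured 60.3, 58.5, 73.0, 59.1 and 52.4 CPM in unexercised and 55.4, 54.3, 46.4, 84.2 and 32.3 CPM in swim-tunnel 3-year fish. Both extremes fell in the swim-tunnel 3-year group, in libraries 4 and 5. Unexercised 3-year library 1, the lowest of all for the 4 neighbouring genes, held 60.3 CPM of PSMB10.

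Of these 5 genes 0 were called in any comparison, with 0 of 5 at an unadjusted p below 0.05 in each and 0 called by DESeq2. With the swim tunnel at 1 year their log2 fold changes lay between -0.25 and -0.067, and with age in swim-tunnel fish between 0.0017 and 0.49. The latter range includes swim-tunnel 3-year library 4, the highest library for each of the 5 genes, and is not given without it. The 95% intervals were wide: for PSMB9 the change with age in swim-tunnel fish lay between -0.22 and 1.20 on the log2 scale. The SD within groups had a median of 0.53 over the 5 genes on the log2 scale of CPM plus 1, against 0.22 over the 38 constitutive barrel and cap genes and 0.25 over all genes tested. PSMB10 was the least variable of the 5, at 0.28, below the constitutive PSMB7 at 0.37 and psma2a at 0.40. Of the 5, the wide spread was thus that of the 4 neighbouring genes. Among the other genes tested, PSME2 had an SD of 0.42 and PSME4 (ENSDARG00000087911) an SD of 0.60. Their highest libraries stood at 3.89 and 15.7 times the lowest. The highest library exceeded the lowest by 5.52 times for PSMB9, 5.11 for psmb13a, 3.799 for PSMB8, 3.71 for psmb12 and 2.61 for PSMB10, against 1.76 for PSMB5, 1.73 for PSMB6 and 2.46 for PSMB7. Among the constitutive barrel genes the α2 copy psma2a reached 3.82.

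**Figure D4:**
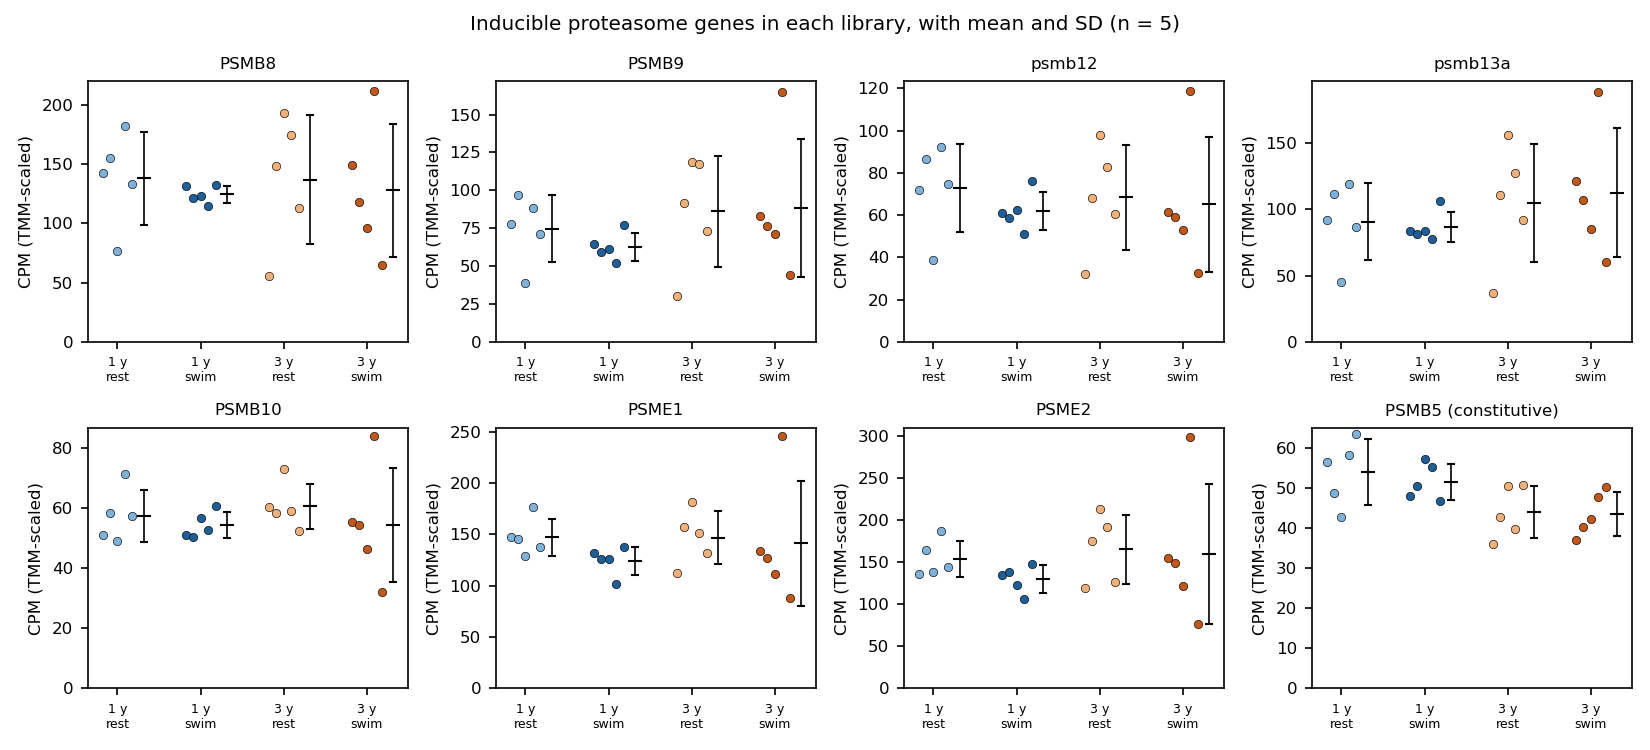
Each panel gives the level of 1 gene in CPM (y axis) in each of the 5 libraries of the 4 groups (x axis; rest is unexercised, swim is swim tunnel), with the mean and SD beside them. PSMB8 ranged from 55.8 to 212 CPM and the constitutive PSMB5 from 36.1 to 63.7 CPM; in each inducible panel the highest point is swim-tunnel 3-year library 4.

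Set against the constitutive gene it replaces, each inducible gene was the more abundant per length. The ratio of PSMB8 to PSMB5 in CPM per kb was above 1 in 20 of 20 libraries, with a median of 2.12 and a range of 1.04 to 3.56. PSMB9 exceeded PSMB6 in 18 of 20 libraries, at a median ratio of 1.72, and PSMB10 exceeded PSMB7 in 20 of 20, at a median ratio of 4.56. These ratios rest on transcript lengths recovered from the deposited RPKM values.

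No difference in these ratios between groups passed the test. In 12 two-sided exact permutation tests of the log2 ratio, 5 libraries against 5, 0 passed after Benjamini-Hochberg adjustment, and the smallest p that the design allows is 0.00794. The lowest p was that of PSMB9 over PSMB6 with age in swim-tunnel fish, where the mean log2 ratio was 0.42 ± 0.29 (SD) at 1 year and 0.95 ± 0.42 at 3 years (exact p = 0.0556; adjusted p = 0.429). PSMB10 over PSMB7 had a mean log2 ratio of 2.47 ± 0.55 in unexercised and 1.99 ± 0.17 in swim-tunnel 1-year fish (SD; exact p = 0.0714; adjusted p = 0.429). The lowest PSMB8 to PSMB5 ratio, 1.04, was in swim-tunnel 3-year library 5, and the highest, 3.56, in library 4 of the same group. With 1 library left out, the change of this log2 ratio with age in swim-tunnel fish ran from 0.0043 to 0.45. The change ran from 0.032 to 0.69 for PSMB10 over PSMB7 and from 0.37 to 0.65 for PSMB9 over PSMB6.

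Some genes that interferon also induces passed the test where these did not. Of 29 interferon-response genes 8 fell with the swim tunnel in 1-year fish, beside 8.15% of all genes tested. Among the 8 were irf9 (-0.99 on the log2 scale, adjusted p = 0.0101), a subunit of the interferon-activated transcription factor, and RSAD2 (-2.42, adjusted p = 0.0168), an antiviral enzyme. In swim-tunnel fish 15 of the 29 rose with age, beside 9.73% of all genes. Summed over the list, swim-tunnel 3-year library 4 held 3943 CPM and library 5 held 579 CPM. No count without library 4 is given for this list. Library 4 also held the lowest keratinocyte sum of all libraries, 54545 CPM, and the lowest sum of fast skeletal muscle genes, 2159 CPM. Unexercised 3-year libraries 3 and 1 held muscle sums nearly as low, 2254 and 2296 CPM. Swim-tunnel 3-year libraries 1, 2, 3 and 5 held 14848, 3753, 10043 and 10384 CPM. The part of these lists in the extremes of library 4 was not tested. Of 19 genes of antigen processing, 3 fell with the swim tunnel at 1 year. Of all genes tested 15.5% were called there, 8.15% as lower. The 3 were tap2t, of the peptide transporter family, nlrc5, in mammals the activator of MHC class I genes, and ERAP1 (ENSDARG00000013024), a peptide-trimming enzyme. Of these, nlrc5 fell by 0.86 on the log2 scale (adjusted p = 0.0398), and it rose by 1.11 with age in swim-tunnel fish (adjusted p = 0.0123). In that age comparison 2 of the 19 were called higher and 0 lower, close to the 9.73% of all genes called higher. The difference in response between these genes and the inducible proteasome genes was not tested.

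Leukocytes of the skin also express the inducible genes. Of 16 leukocyte markers 0 were called with the swim tunnel at 1 year (15.5% of all genes) and 1 rose with it at 3 years (0.803%). With age in swim-tunnel fish 6 rose (9.73% of all genes), among them SPI1, the myeloid transcription factor, and cd79a, of the B-cell receptor. SPI1 averaged 13.7 CPM in swim-tunnel 1-year and 40.1 CPM in swim-tunnel 3-year fish, whereas cd79a was scarce, at 0.206 and 1.14 CPM. The summed leukocyte list lay between 2838 and 5373 CPM in unexercised 1-year, 3586 and 5410 in swim-tunnel 1-year, 3041 and 6564 in unexercised 3-year and 3229 and 7656 in swim-tunnel 3-year fish. The highest sum, 7656 CPM, was that of swim-tunnel 3-year library 4. Its part in the values of the inducible genes was not tested.

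Activators bind the ends of the barrel and open its gate. PSME1 and PSME2 form the interferon-inducible PA28αβ. PSME1 measured 148, 146, 129, 177 and 138 CPM in unexercised and 131, 126, 126, 101 and 138 CPM in swim-tunnel 1-year fish. In 3-year fish it measured 113, 157, 181, 152 and 132 CPM without and 134, 127, 111, 246 and 88.5 CPM with the swim tunnel. As for PSMB10, swim-tunnel 3-year library 4 was the highest and library 5 the lowest of all 20, and the groups overlapped.

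PSME2 measured 136, 164, 138, 187 and 144 CPM in unexercised and 135, 138, 123, 106 and 148 CPM in swim-tunnel 1-year fish. At 3 years it measured 119.6, 175, 213, 192 and 126 CPM without and 155, 149, 122, 298 and 76.6 CPM with the swim tunnel. The extremes were again libraries 4 and 5 of the swim-tunnel 3-year fish. Neither gene was called, with log2 fold changes between -0.24 and 0.18 for PSME1 and between -0.24 and 0.30 for PSME2.

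PSME3 encodes PA28γ, a nuclear activator that interferon does not induce. It measured 30.6, 29.5, 16.4, 21.4 and 24.7 CPM in unexercised and 21.9, 31.2, 24.0, 35.8 and 27.1 CPM in swim-tunnel 1-year fish. The 3-year fish gave 16.9, 15.6, 15.7, 17.97 and 22.2 CPM without and 17.8, 22.9, 24.8, 37.5 and 26.4 CPM with the swim tunnel. Most swim-tunnel 3-year values lay above the unexercised ones, but the groups overlapped, and the log2 fold change was 0.55 ± 0.20 (SE; adjusted p = 0.137).

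PSME4 encodes PA200, a large single-chain activator known in mammals for the degradation of acetylated histones, and zebrafish has the pair psme4a and psme4b. The gene ENSDARG00000018742 measured 65.2, 67.7, 65.1, 62.0 and 69.6 CPM in unexercised and 73.2, 75.7, 73.2, 83.5 and 74.0 CPM in swim-tunnel 1-year fish. At 3 years it measured 52.5, 51.1, 56.5, 54.7 and 48.3 CPM without and 55.0, 61.2, 63.3, 59.6 and 70.5 CPM with the swim tunnel. Both 3-year groups lay below the 1-year group of the same arm with no overlap, and at 1 year the swim-tunnel libraries all lay above the unexercised ones. It was among the least variable of the 57 genes, with a within-group SD of 0.092 on the log2 scale.

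The fall of PSME4 (ENSDARG00000018742) with age in swim-tunnel fish was -0.29 ± 0.077 on the log2 scale (SE; adjusted p = 0.0161). It was called in all 20 fits that left out 1 library. The call was lost with the compared groups fitted alone (adjusted p = 0.0785) and with plain library totals, where its fold change was -0.067 (adjusted p = 0.551). In unexercised fish the fold change with age was -0.32 ± 0.077 (SE; adjusted p = 0.0501), just short of the threshold, and DESeq2 gave an adjusted p of 0.000816. The fold changes with the swim tunnel were 0.20 ± 0.077 (SE; adjusted p = 0.0805) at 1 year and 0.24 ± 0.077 (SE; adjusted p = 0.11) at 3 years. With plain library totals the first of these turned to -0.017.

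The second PSME4 gene, ENSDARG00000087911, was far scarcer, at 1.35 CPM per kb against 8.67. It measured 6.5002, 2.78, 4.83, 2.06 and 7.95 CPM in unexercised and 14.6, 12.03, 8.31, 8.88 and 10.2 CPM in swim-tunnel 1-year fish. At 3 years it measured 6.33, 5.75, 2.61, 9.85 and 6.40 CPM without and 15.999, 7.44, 32.3, 9.11 and 14.9 CPM with the swim tunnel. At 1 year every swim-tunnel value exceeded every unexercised one, and at 3 years the groups overlapped, with swim-tunnel library 3 far above the rest.

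The log2 fold changes of PSME4 (ENSDARG00000087911) with the swim tunnel were the largest of the 57 genes in both ages, 1.16 ± 0.41 (SE; adjusted p = 0.0619) at 1 year and 1.36 ± 0.41 (SE; adjusted p = 0.0874) at 3 years, and neither passed in edgeR. DESeq2 called both, with adjusted p of 0.0219 and 0.0211. At 1 year limma voom (adjusted p = 0.016) and edgeR on the compared groups alone (adjusted p = 0.0371) called it too. With all groups, edgeR called it at 1 year in the fits without unexercised 1-year library 5, unexercised 3-year library 3 or swim-tunnel 3-year library 3, with adjusted p down to 0.0311.

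PSMF1 encodes PI31, which inhibits the barrel in vitro. It measured 27.3, 28.5, 29.6, 41.2 and 30.3 CPM in unexercised and 23.3, 18.7, 25.2, 16.2 and 24.9 CPM in swim-tunnel 1-year fish. At 3 years it measured 28.9, 40.7, 44.9, 44.6 and 35.2 CPM without and 32.2, 35.8, 28.7, 53.9 and 18.9 CPM with the swim tunnel. The swim-tunnel 1-year values all lay below the unexercised 1-year ones, while the swim-tunnel 3-year values ran from 18.9 to 53.9 CPM and overlapped them.

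With age in swim-tunnel fish PSMF1 rose by 0.65 ± 0.21 on the log2 scale (SE; adjusted p = 0.0429). The call held in 7 of 20 fits that left out 1 library and ended in 13, with adjusted p up to 0.141. It held without unexercised 1-year library 1 or 4, swim-tunnel 1-year library 5, unexercised 3-year library 1, 3 or 4 and swim-tunnel 3-year library 5. Without swim-tunnel 3-year library 4 the fold change was lowest, at 0.42. The call was also lost with no filter (adjusted p = 0.0551), with limma voom (adjusted p = 0.112) and with the compared groups alone (adjusted p = 0.114). At 1 year the fold change with the swim tunnel was -0.54 ± 0.21 (SE; adjusted p = 0.0957), and leaving out swim-tunnel 3-year library 4 brought its adjusted p to 0.0452. It passed too with the compared groups alone (adjusted p = 0.0332) and with plain library totals (adjusted p = 0.0247).

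**Figure D5:**
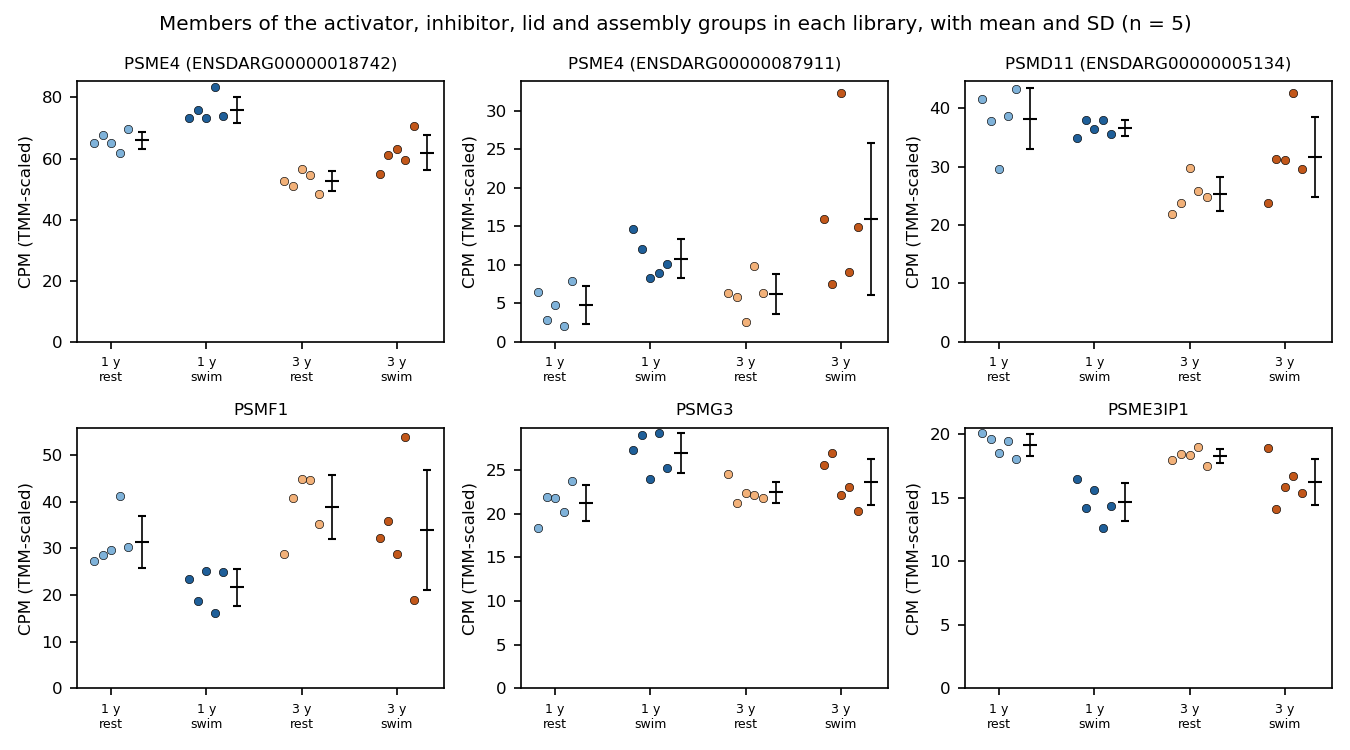
Levels in CPM (y axis) of 6 genes in each of the 5 libraries of the 4 groups (x axis; rest is unexercised, swim is swim tunnel), with the mean and SD beside them. PSME4 (ENSDARG00000018742) separates both ages in either arm, PSMD11 (ENSDARG00000005134) is lowest in unexercised 3-year fish at 21.9 to 29.8 CPM, and PSME3IP1 separates the 1-year groups.

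Assembly chaperones build the complex and are absent from the finished form. PSMG1, PSMG2 and PSMG3 assist the α ring. PSMG3 measured 18.4, 21.9, 21.8, 20.3 and 23.8 CPM in unexercised and 27.3, 29.0, 23.9, 29.2 and 25.2 CPM in swim-tunnel 1-year fish. In 3-year fish it measured 24.5, 21.2, 22.4, 22.2 and 21.8 CPM without and 25.5, 27.0, 22.1, 23.1 and 20.3 CPM with the swim tunnel. The 1-year groups did not overlap, and the 3-year groups did.

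PSMG3 rose with the swim tunnel in 1-year fish by 0.34 ± 0.095 on the log2 scale (SE; adjusted p = 0.0195), against 0.074 ± 0.095 (SE; adjusted p = 0.713) in 3-year fish. The difference between the ages was -0.27 ± 0.13 (SE; adjusted p = 0.392). The call ended without unexercised 1-year library 1 or 4 or swim-tunnel 1-year library 2 or 4, with adjusted p up to 0.0772, and with plain library totals, where the fold change was 0.13 (adjusted p = 0.343). PSMG1 and PSMG2, which act as a pair, stood at -0.24 ± 0.18 and -0.075 ± 0.15 (SE) in the same comparison and were called in none.

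PSMD5, PSMD9 and PSMD10 assist the base of the cap. PSMD5 measured 13.7, 14.1, 15.01, 18.2 and 23.2 CPM in unexercised and 17.4, 19.5, 23.6, 17.4 and 20.8 CPM in swim-tunnel 1-year fish. In 3-year fish it measured 16.5, 13.9, 21.9, 14.2 and 16.4 CPM without and 10.9, 15.3, 14.4, 18.9 and 11.95 CPM with the swim tunnel. The groups overlapped at each age. Its exercise effect was 0.23 ± 0.17 at 1 year and -0.21 ± 0.17 at 3 years on the log2 scale (SE), a difference of -0.44 ± 0.24 (SE; adjusted p = 0.453). With age in swim-tunnel fish PSMD5 stood at -0.46 ± 0.17 (SE; adjusted p = 0.0699), and there DESeq2 and limma voom called it as lower. PSMD10, known as gankyrin, lay between 10.53 and 11.6 CPM in unexercised and between 6.996 and 9.22 CPM in swim-tunnel 1-year fish. These groups did not overlap, and the adjusted p of its log2 fold change of -0.43 ± 0.18 (SE) was 0.115. It was called as lower with the compared groups alone, with plain library totals and without swim-tunnel 3-year library 4.

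The 2 genes that are no subunits accounted for 2 of the 6 calls. PSME3IP1 measured 20.1, 19.6, 18.5, 19.5 and 18.003 CPM in unexercised and 16.5, 14.1, 15.6, 12.6 and 14.3 CPM in swim-tunnel 1-year fish. In 3-year fish it measured 17.99, 18.5, 18.3, 18.9 and 17.5 CPM without and 18.9, 14.1, 15.8, 16.7 and 15.4 CPM with the swim tunnel. All 5 swim-tunnel 1-year values lay below the unexercised ones, and the fall was -0.39 ± 0.091 on the log2 scale (SE; adjusted p = 0.00824). It was called in all 20 fits that left out 1 library and in all 7 other settings, with adjusted p up to 0.0276 and 0.0214.

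PSMC3IP was scarce, at 2.46, 2.44, 1.71, 2.76 and 2.42 CPM in unexercised and 1.55, 1.22, 1.79, 1.75 and 1.35 CPM in swim-tunnel 1-year fish. In 3-year fish it measured 1.94, 3.31, 4.02, 3.203 and 2.88 CPM without and 2.59, 2.82, 3.06, 5.14 and 0.886 CPM with the swim tunnel. The swim-tunnel 3-year group held both the lowest and the highest of the 20 values. It rose with age in swim-tunnel fish by 0.92 ± 0.31 on the log2 scale (SE; adjusted p = 0.0477), a call that held in 2 of 20 fits that left out 1 library, those without unexercised 3-year library 1 or swim-tunnel 3-year library 5. The adjusted p without any one of the others ran up to 0.158. The call was also lost with RLE scaling (adjusted p = 0.0503), no filter (0.0593), limma voom (0.13) and the compared groups alone (0.133).

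Partners of the proteasome outside the naming rule were called in 2 of the 4 pairwise comparisons. The 31 such genes include the chaperone POMP, the ubiquitin receptor ADRM1, the deubiquitinases UCHL5 and USP14 and the shuttle factors of the RAD23 family. Of the 31, 3 were called with the swim tunnel at 1 year (15.5% of all genes) and 1 with age in swim-tunnel fish (17.2% of all genes). With the swim tunnel at 3 years and with age in unexercised fish 0 were called (1.32% and 0.967% of all genes). In those 2 comparisons 6 and 5 of 31 had an unadjusted p below 0.05, with no share of all genes at that p to set beside them. All 4 calls fell on transcription factors of the NFE2L family. NFE2L2, the regulator of the antioxidant response, stood between 100.4 and 151 CPM in unexercised and between 165 and 261 CPM in swim-tunnel 1-year fish. It rose with the swim tunnel by 0.78 ± 0.14 on the log2 scale (SE; adjusted p = 0.00144) and fell by 0.64 with age in swim-tunnel fish (adjusted p = 0.00557). The paralogue nfe2l2b rose by 2.06 ± 0.62 (SE; adjusted p = 0.0302) and nfe2l3 fell by 0.52 (adjusted p = 0.033) with the swim tunnel at 1 year. Of these, nfe2l2b was scarce, at 0.182 to 1.21 CPM in unexercised and 0.819 to 3.995 CPM in swim-tunnel 1-year fish, which overlapped. NFE2L1, which in mammals raises proteasome genes when the complex is inhibited, was not called, at 0.14 ± 0.28 (SE; adjusted p = 0.77) with the swim tunnel at 1 year. The more abundant nfe2l1b was not called there either. It averaged 54.6 CPM in unexercised and 62.9 CPM in swim-tunnel 1-year fish, against 10.6 and 11.8 CPM for NFE2L1.

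Transcripts of another tissue moved with the 1-year comparison and with age in swim-tunnel fish, beside the calls of PSMG3, PSME3IP1, PSMF1, PSMC3IP and PSME4. Of 12 hepatocyte markers 11 rose with the swim tunnel at 1 year (7.37% of all genes) and 10 fell with age in swim-tunnel fish (7.43%). Their sum lay between 152 and 344 CPM in unexercised 1-year, 309 and 4949 in swim-tunnel 1-year, 227 and 1632 in unexercised 3-year and 174 and 745 in swim-tunnel 3-year fish. Markers of the labelled tissue moved in the same comparisons. Of 7 keratinocyte markers 2 rose with the swim tunnel at 1 year (7.37% of all genes) and 3 fell with age in swim-tunnel fish (7.43%). The other 2 pairwise comparisons called 0 of the 7. The TMM factors of the swim-tunnel 1-year libraries, 0.810 to 0.948, were below those of the other groups, 0.976 to 1.097. The part of the hepatocyte markers, the keratinocyte markers or the TMM factors in the calls of these 5 genes was not tested.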

How the data were processed

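RNA from zebrafish skin was sequenced from 20 libraries. The deposited values are gene counts and RPKM. Counts were made by the authors with STAR 2.4.1d and featureCounts 1.4.6-p4 on the build GRCz10 after demultiplexing with bcl2fastq 1.8.4, per the submitters' processing notes; their filters, strand setting and annotation release are not stated. Total RNA was converted with the TruSeq RNA v2 kit, per the labels. The deposited RPKM values were used only to recover gene lengths: over 11517 genes with at least 100 counts in every library, the implied length varied by a median of 0.00394% when the divisor ran through the library totals cumulatively and by 23.8% with the library's own total as the divisor. The RPKM are therefore not comparable between libraries and no level was taken from them. One count column is named for muscle; its number matches 1 skin title and no other, and it was taken as unexercised 1-year library 1.

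Gene symbols came from a table that writes many zebrafish genes with the human symbol; 26269 of 32105 genes had one. Genes were filtered with filterByExpr, scaled with TMM and tested with edgeR 4.0.16 (R 4.3.3) by robust quasi-likelihood F-tests in one model of 4 group means, with 16 residual degrees of freedom, and p-values were adjusted by Benjamini-Hochberg over 20788 genes. Standard errors were the log2 fold change over the square root of F, and intervals are 95%. The script was tested on simulated counts, with genes drawn independently and changes larger than most of those reported here. That test does not gauge small changes shared by many genes. Levels are CPM on TMM-scaled totals; per-length levels divide by the recovered length in kb. Log2 ratios of catalytic genes used a pseudocount of 0.1 CPM per kb. The biological coefficient of variation was 34.7%. Library totals were 31272180 to 43187976 counts in unexercised 1-year, 29633656 to 52437698 in swim-tunnel 1-year, 36616292 to 50756160 in unexercised 3-year and 29280697 to 42117170 in swim-tunnel 3-year fish. Over 40 pairs of libraries of one group, chi-square divided by its degrees of freedom was at least 47.8, so all were counted as separate.

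Alternatives were RLE scaling, no filter, at least 1 CPM in 5 libraries, DESeq2 1.42.0, limma 3.58.1 voom with quality weights, the compared groups alone, each library left out in turn, and, chosen after seeing the data, plain library totals. The genes and lists were chosen with earlier results of these data known. Genes with values in every library were the catalytic, inducible, PA28 and inhibitor genes and, per comparison, up to 6 called genes of lowest p and up to 4 of largest fold change, or the 3 of lowest p where none was called; psma6l, PSMC6, PSMD10 and the members named in ranges were chosen after their values were seen. The lists of partners, interferon response, antigen processing, leukocytes, hepatocytes, keratinocytes and fast skeletal muscle were matched by symbol. Of 9 muscle genes tested 1 rose with the swim tunnel at 3 years (0.803% of all genes).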

Additional observations from a re-analysis of the deposited data

Results flagged for a closer look

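In 3 of 80 sets of 5 libraries (20 genes in 4 groups), 1 library lay far from the other 4 of its group; chance would set apart about 4. PSME4 (ENSDARG00000018742) stood at 83.5 CPM in swim-tunnel 1-year library 4, with the others between 73.2 and 75.7. PSMF1 stood at 41.2 CPM in unexercised 1-year library 4, with the others between 27.3 and 30.3. The inducible gene psmb13a stood at 106 CPM in swim-tunnel 1-year library 5, with the others between 77.9 and 84.0.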

How the results depend on the processing

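The 57 genes gave few calls under any setting, and which of them passed depended on it. With the swim tunnel at 1 year the 2 calls became 4 with DESeq2 (19.8% of all genes called), 7 with the compared groups fitted alone (2 higher, 5 lower; 17.9% of all genes) and 6 with plain library totals (0 higher, 6 lower, against 1 and 1 as reported; 21.5% of all genes). Leaving out 1 library gave 1 to 4. At 3 years the 0 calls became 2 with DESeq2 (6.05% of all genes). For age in unexercised fish the 1 call became 2 with RLE scaling (1.01% of all genes) and with at least 1 CPM in 5 libraries (1.22%). It was also 2 with DESeq2 (4.05%) and limma voom (4.47%), the added call each time being PSME4 (ENSDARG00000018742). The count became 0 with plain library totals (0.688%) and with the compared groups alone (0.651%), and 0 to 2 without 1 library. For age in swim-tunnel fish the 3 calls became 1 with no filter (11.6% of all genes), 0 with the compared groups alone (8.39%), 6 with plain library totals (6 higher, 0 lower, against 2 and 1 as reported; 24.9%), 4 with limma voom (0 higher, 4 lower; 12.2%) and 1 to 5 without 1 library. In the test of the difference between the ages, 0 of the genes were called under every setting tried, against at most 2.41% of all genes, under DESeq2.

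Plain library totals turned the sign of several values: the fold change of PSME4 (ENSDARG00000018742) with the swim tunnel at 1 year became -0.017, and the median of the 21 cap genes with age in swim-tunnel fish became 0.073 and that of the 38 barrel and cap genes 0.12, with the median of all genes at 0.25. The near-zero median of the cap genes with the swim tunnel at 3 years became -0.019. TMM and plain totals differ by the TMM factors, which were 0.810 to 0.948 in the swim-tunnel 1-year libraries and 0.976 to 1.097 in the others. In the 3-year groups they were 1.005 to 1.097 without and 0.989 to 1.081 with the swim tunnel. Neither scaling shows an absolute change. Some log2 ratios of inducible over constitutive genes changed sign when 1 library was left out, none of them past the threshold. PSMB8 over PSMB5 ran from -0.15 to 0.052 with the swim tunnel at 1 year and from -0.30 to 0.20 at 3 years. PSMB9 over PSMB6 ran from -0.16 to 0.25 with the swim tunnel at 3 years and from -0.030 to 0.48 with age in unexercised fish. Of 48 fold changes of the 12 catalytic, inducible, PA28 and inhibitor genes, 24 changed sign under some alternative, none of these was called under any, and the largest was 0.30 in size. The causes were not tested. No paired analysis was possible because the labels give no replicate numbers or other link between groups.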
